A study of Homo sapiens with 30 samples.

Results

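The genes described here are 10 whose RNA fell steeply when cells were given the splicing inhibitor pladienolide B (PB): GOLGA2P5, KRCC1, KAT14, RSKR, LINC01355, KCNAB3, YJEFN3, KLF15, MAN2B2 and KLRA1P. They were picked by name from 61487 genes in the count table for large falls in control cells or in cells with an altered SUGP1, and all 10 are among the 31495 genes that passed the filter on low counts. The falls in those cells are therefore given as a description, with no test. The tests on the 10 genes compare only libraries that did not enter the choice, although the spread of each gene was estimated over all 30 libraries. Tests on other genes, named beside them, use all groups.

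The 30 libraries were all made from eHAP FNLS cells, a haploid human line of the HAP1 lineage in which every group carries FNLS, a cytosine base editor. Of the 5 genotypes, PHF5A 2xTL carries a 6-nt insertion in PHF5A, SF3B1 T1080I, SUGP1 E554K and SUGP1 G603N carry amino acid changes, and control cells received a guide RNA with no target. Each genotype was kept for 3 h with 2 nM PB or with the solvent DMSO, with 3 libraries per genotype and treatment. Each mutant is represented by 3 monoclonal lines that arose independently and the control by 3 replicates of 1 line, so the spread among mutants is that between clones and the spread among controls is that between samples of 1 line. Estimated counts per library totalled 31590000 to 75040000, and levels are given as CPM, the count per 1e+06 counts of the TMM-scaled library. Of the markers checked for the cell line, 0 of 7 haematopoietic and 0 of 4 lymphoid and natural killer genes reached a median of 1 CPM over the 30 libraries, against 4 of 5 mesenchymal, 2 of 5 epithelial and 4 of 4 neural genes. Within a bulk culture, fewer cells that make an RNA and less of it per cell cannot be told apart.

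PB binds a pocket formed by SF3B1 and PHF5A, subunits of the SF3b complex with which the U2 snRNP recognises the branch point of an intron, and SUGP1, which has a G-patch domain, acts together with SF3B1 in this step. When an intron is not removed, the transcript can be held in the nucleus or degraded. Gene counts show abundance, not splicing, and the measurements below are of abundance.

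All 10 genes have introns in GENCODE release 29 (hg38), from 1 in the annotated LINC01355 transcript to 18 in MAN2B2. Their median was 7 exons, against 4 over the 30286 tested genes found in that annotation, 25.9% of which have a single exon. The 7 protein-coding genes among them had a median of 10 exons, against 9 over 16240 tested protein-coding genes. The gene span had a median of 13207.5 bases, against 12348 bases over the 30286 genes. For the 7 protein-coding genes the median span was 14808 bases, against 32620.5 bases over the tested protein-coding genes. GOLGA2P5 and KLRA1P are transcribed pseudogenes that kept their introns, and LINC01355 is a long intergenic non-coding RNA.

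Promoter windows of 300 bases were available from RefSeq (GRCh38.p14) for 7 of the 10 genes, and 3 of them are printed 5′ to 3′ because they span the range of base composition among genes whose RNA fell together. Capitals mark matches on either strand to the TATA box motif TATAAA, to the box motif CCAAT, to the GC box motif GGGCGG or to the E-box motif CACGTG. The KRCC1 window (chr2:88055734-88056033, minus strand) is 67.3% G and C, that of KLF15 (chr3:126357359-126357658, minus strand) is 80.3% and that of LINC01355 (chr1:23285469-23285768, minus strand) is 35.3%, against a median of 58.7% over 35116 promoters. The LINC01355 window, placed by the RefSeq start, lies inside the GENCODE gene, downstream of its annotated 5′ end.
KRCC1: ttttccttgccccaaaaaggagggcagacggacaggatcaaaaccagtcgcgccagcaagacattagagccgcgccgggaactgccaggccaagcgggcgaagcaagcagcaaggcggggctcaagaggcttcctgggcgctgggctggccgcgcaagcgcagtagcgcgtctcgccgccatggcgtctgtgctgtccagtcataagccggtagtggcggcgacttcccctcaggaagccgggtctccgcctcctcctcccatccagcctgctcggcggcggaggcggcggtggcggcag
KLF15: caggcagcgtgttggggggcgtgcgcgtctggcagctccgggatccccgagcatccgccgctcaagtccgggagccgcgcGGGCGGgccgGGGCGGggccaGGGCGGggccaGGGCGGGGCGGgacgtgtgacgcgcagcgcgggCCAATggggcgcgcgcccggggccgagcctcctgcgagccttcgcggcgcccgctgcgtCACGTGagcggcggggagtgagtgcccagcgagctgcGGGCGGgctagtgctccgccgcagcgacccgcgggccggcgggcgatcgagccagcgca
LINC01355: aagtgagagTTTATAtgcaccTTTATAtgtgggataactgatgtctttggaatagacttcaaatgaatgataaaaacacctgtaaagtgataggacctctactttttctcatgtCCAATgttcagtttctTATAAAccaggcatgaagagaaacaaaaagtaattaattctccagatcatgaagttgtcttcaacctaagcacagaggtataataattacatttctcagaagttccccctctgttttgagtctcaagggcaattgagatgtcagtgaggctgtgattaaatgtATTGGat
KRCC1 held no match to any of the 4 motifs in its window. KLF15 held 6 GC boxes, of which adjoining ones can share a base, a CCAAT box and an E-box, and LINC01355 held 3 TATA and 2 CCAAT matches. Over the 7 genes, CCAAT was found in 5 (34.6% of all promoters), GGGCGG in 4 (45.0%), CACGTG in 2 (7.26%) and TATAAA in 1 (11.5%), where KAT14 counts as holding a motif if any of its 4 windows did. No motif was present in all 7.

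Across the 10 genes, the log2 fold change with PB ran from -2.45 to -1.42 in SUGP1 E554K lines (median -1.69), from -2.16 to -1.37 in SUGP1 G603N lines (median -1.66) and from -2.50 to -1.34 in control cells (median -2.02). The medians over all tested genes lay between -0.01 and 0.01 in these 3 comparisons. All 3 PB libraries lay below all 3 DMSO libraries for all 10 genes in each of them, as they did for 10.1%, 8.19% and 14.2% of all genes. The share of all genes called lower at an adjusted p under 0.05 was 3.30% in SUGP1 E554K, 2.99% in SUGP1 G603N and 3.31% in control, and nothing is read from the genes' own count, since these comparisons chose them. The genes were also ordered by the size of the fall in control among 908 genes. These were called lower, had all 3 PB libraries below all 3 DMSO libraries and a mean of 4 CPM or more. In this order GOLGA2P5 was rank 1 and KRCC1 rank 2, and MAN2B2 rank 52. No RNA was lost outright: the lowest share that remained in any line was 12.2% of the DMSO level, for GOLGA2P5 in control replicate 1, and the lowest count was 53, for KLRA1P in a SUGP1 E554K line with PB.

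**Figure D1:**
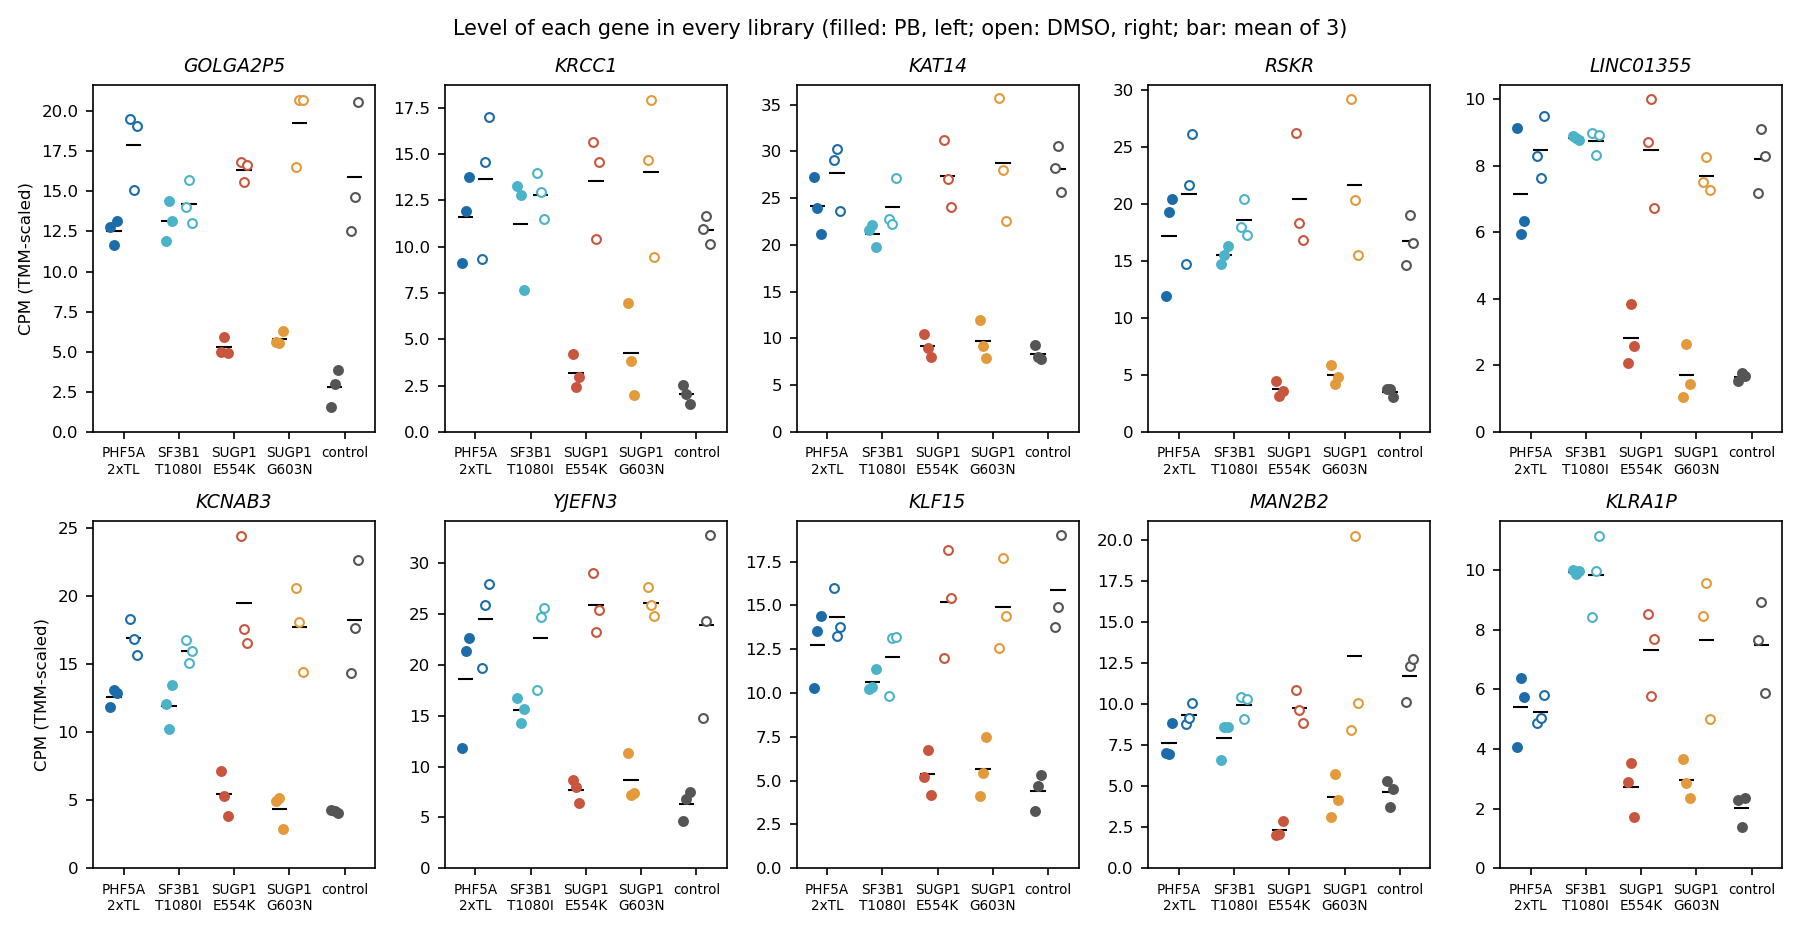
Level of each of the 10 genes in every library, in CPM of the TMM-scaled library on linear axes that start at 0. Filled points are PB and open points DMSO, 3 libraries per genotype and treatment, with a bar at their mean. In the SUGP1 and control groups all filled points lie below all open points for every gene, and filled and open points overlap for 8 genes in PHF5A 2xTL and for 5 in SF3B1 T1080I.

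GOLGA2P5 (ENSG00000238105, chromosome 12, 100156357 to 100173659, minus strand, hg38) is a pseudogene of GOLGA2, which encodes the cis-Golgi matrix protein GM130. It had 5, 5.92 and 4.91 CPM with PB against 16.9, 15.6 and 16.6 CPM with DMSO in SUGP1 E554K lines 1, 2 and 3. SUGP1 G603N lines 1, 2 and 3 had 5.6, 5.55 and 6.27 CPM with PB against 16.5, 20.7 and 20.7 CPM with DMSO. Control cells had 1.53, 2.99 and 3.88 CPM with PB against 12.5, 14.6 and 20.6 CPM with DMSO in replicates 1, 2 and 3. Of the DMSO level, 29.7, 38 and 29.5% remained in SUGP1 E554K lines and 33.9, 26.9 and 30.3% in SUGP1 G603N lines, against 12.2, 20.5 and 18.8% in control replicates. The log2 fold change was -1.63 ± 0.222 in SUGP1 E554K, -1.73 ± 0.222 in SUGP1 G603N and -2.50 ± 0.231 in control (SE from the fit to all 30 libraries). The gene was chosen for these falls, and whether they differ in size was not tested. The PHF5A 2xTL lines had 12.8, 11.6 and 13.2 CPM with PB against 19.5, 15.1 and 19.1 CPM with DMSO, and all 3 PB libraries lay below all 3 DMSO libraries. The SF3B1 T1080I lines had 11.9, 14.4 and 13.2 CPM with PB against 14, 15.7 and 13 CPM with DMSO, which overlapped. The log2 fold change was -0.51 ± 0.215 (SE, unadjusted p = 0.024) in PHF5A 2xTL and -0.12 ± 0.215 (SE, unadjusted p = 0.596) in SF3B1 T1080I, with an adjusted p of 1 for both (edgeR).

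Because GOLGA2P5 resembles GOLGA2, reads of the pair could be exchanged. Their best alignment spanned 771 positions at 83.0% identity. A 60-base stretch with 5 differences is printed 5′ to 3′ from the GENCODE transcripts, bases 1860 to 1919 of GOLGA2P5 and bases 2171 to 2230 of GOLGA2 within its coding sequence, with the differences in capitals.
GOLGA2P5: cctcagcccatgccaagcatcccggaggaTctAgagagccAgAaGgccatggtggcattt
GOLGA2: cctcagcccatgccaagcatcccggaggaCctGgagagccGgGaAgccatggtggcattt
Of the 11740 distinct 50-base words in GOLGA2P5 transcripts, 21 also occur in GOLGA2 (chromosome 9, 128255829 to 128275995), and of its 13047 words of 150 bases, the read length, 0 do. GOLGA2 itself had 43.2 ± 4.99 CPM with PB against 62.8 ± 3.29 CPM with DMSO in SUGP1 E554K (log2 fold change -0.54 ± 0.143, adjusted p = 0.0261, edgeR), a call that held in 5 of 11 alternatives and was lost when any of DMSO libraries 1 and 2 and PB libraries 2 and 3 was left out. In control it had 36.7 ± 3.83 against 63.4 ± 14.2 CPM (-0.79 ± 0.143, adjusted p = 0.00107), a call that held in 11 of 11. In SUGP1 G603N its difference did not pass (-0.42 ± 0.142, adjusted p = 0.106). GOLGA2 thus moved the same way as GOLGA2P5 in control and SUGP1 E554K cells and by a smaller log2 amount. The deposited GOLGA2P5 values were not whole numbers in 30 of 30 libraries. Over all other genes, among them AC010203.1 and RN7SL176P, 654 of its 50-base words and 430 of its 150-base words are shared. Another pseudogene on the same strand, ENSG00000257489, shares 4.23% of the exonic bases of GOLGA2P5. It stood at 0.433 ± 0.139 CPM with PB against 0.969 ± 0.307 CPM with DMSO in control (adjusted p = 0.266, edgeR). RN7SL176P, on the same strand, shares 2.41% of these bases and did not pass the filter on low counts.

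LINC01355 (ENSG00000261326, chromosome 1, 23281308 to 23286752, minus strand) is the only long intergenic non-coding RNA of the 10. It had 2.06, 3.84 and 2.57 CPM with PB against 8.71, 10.0 and 6.73 CPM with DMSO in SUGP1 E554K lines 1, 2 and 3. In SUGP1 G603N lines 1, 2 and 3 the level was 1.05, 2.65 and 1.44 CPM with PB against 7.52, 8.28 and 7.28 CPM with DMSO. In control cells it had 1.53, 1.76 and 1.68 CPM with PB against 7.19, 9.1 and 8.31 CPM with DMSO in replicates 1, 2 and 3. The 3 control replicates kept 21.3, 19.3 and 20.2% of the DMSO level, while the SUGP1 G603N lines spread from 14 to 32% and the SUGP1 E554K lines from 23.6 to 38.4%. In PHF5A 2xTL lines the levels were 9.13, 5.95 and 6.33 CPM with PB against 8.28, 7.63 and 9.5 CPM with DMSO, and in SF3B1 T1080I lines 8.89, 8.84 and 8.77 CPM against 8.97, 8.34 and 8.94 CPM. Line 1 of PHF5A 2xTL and line 2 of SF3B1 T1080I were higher with PB, and the groups overlapped in both genotypes. The log2 fold change was -0.25 ± 0.253 (SE, unadjusted p = 0.341) in PHF5A 2xTL and 0.01 ± 0.252 (SE, unadjusted p = 0.957) in SF3B1 T1080I (adjusted p = 1 for both, edgeR). It overlaps no other annotated gene.

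KLRA1P (ENSG00000256667, chromosome 12, 10588063 to 10599669, minus strand) is a pseudogene of a killer cell lectin-like receptor, a family of natural killer cell receptors whose mouse relatives are the Ly49 genes. It had 2.9, 3.53 and 1.72 CPM with PB against 8.53, 5.76 and 7.7 CPM with DMSO in SUGP1 E554K lines 1, 2 and 3. Lines 1, 2 and 3 of SUGP1 G603N had 3.67, 2.86 and 2.36 CPM with PB against 8.45, 9.55 and 4.99 CPM with DMSO. Control cells had 2.28, 1.39 and 2.36 CPM with PB against 7.64, 8.93 and 5.89 CPM with DMSO in replicates 1, 2 and 3. Its lines differed widely: 34, 61.4 and 22.4% remained in SUGP1 E554K lines, 43.4, 29.9 and 47.2% in SUGP1 G603N lines and 29.8, 15.6 and 40% in control replicates. In PHF5A 2xTL lines it had 4.05, 6.39 and 5.73 CPM with PB against 4.88, 5.04 and 5.8 CPM with DMSO, and the SF3B1 T1080I lines 9.99, 9.87 and 9.98 CPM against 8.42, 9.97 and 11.2 CPM, with overlap in both. Its fold change was 0.04 ± 0.271 (SE, unadjusted p = 0.875) on the log2 scale in PHF5A 2xTL and 0.01 ± 0.268 (SE, unadjusted p = 0.957) in SF3B1 T1080I (adjusted p = 1, edgeR), and both estimates changed sign when single libraries were left out. Under DMSO it was the gene of the 10 with the lowest unadjusted p between those genotypes: all 3 PHF5A 2xTL libraries lay below all 3 SF3B1 T1080I libraries, at 5.24 ± 0.491 against 9.85 ± 1.37 CPM (SD, n = 3 each). That log2 difference of -0.91 ± 0.271 (SE, unadjusted p = 0.00228) did not pass the adjustment (adjusted p = 0.485, edgeR, and 0.0677 to 1 over 10 alternatives), and 8.40% of all genes showed the same separation.

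KRCC1 (ENSG00000172086, chromosome 2, 88027205 to 88055729, minus strand) encodes lysine-rich coiled-coil 1, a protein of little-known function. It had 4.23, 2.4 and 2.96 CPM with PB against 15.6, 10.4 and 14.6 CPM with DMSO in SUGP1 E554K lines 1, 2 and 3. SUGP1 G603N lines 1, 2 and 3 had 6.94, 3.82 and 1.97 CPM with PB against 14.7, 17.9 and 9.45 CPM with DMSO. In control cells it had 2.52, 2.06 and 1.5 CPM with PB against 11, 11.7 and 10.1 CPM with DMSO in replicates 1, 2 and 3. Line 1 of SUGP1 G603N stood apart, keeping 47.2% of the DMSO level against 21.3 and 20.9% in lines 2 and 3, while the SUGP1 E554K lines kept 27, 23.1 and 20.3% and the control replicates 23, 17.7 and 14.8%. In PHF5A 2xTL lines it had 9.13, 11.9 and 13.8 CPM with PB against 9.33, 14.6 and 17 CPM with DMSO, with line 1 lowest in both treatments. In SF3B1 T1080I lines it had 13.2, 12.8 and 7.66 CPM with PB against 14, 12.9 and 11.5 CPM with DMSO, and the PB library of line 3 was the lowest of the 6. PB was below DMSO in 6 of 6 of these lines, with a log2 fold change of -0.23 ± 0.322 (SE, unadjusted p = 0.48) in PHF5A 2xTL and -0.19 ± 0.321 (SE, unadjusted p = 0.563) in SF3B1 T1080I (adjusted p = 1, edgeR). Without PB library 3 the SF3B1 T1080I estimate was 0.02.

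Among the genes with roles in transcription, KAT14 (ENSG00000149474, chromosome 20, 18138118 to 18188387, plus strand) encodes a lysine acetyltransferase subunit of the ATAC histone acetylation complex. It had 10.5, 8.99 and 8.02 CPM with PB against 31.2, 27 and 24 CPM with DMSO in SUGP1 E554K lines 1, 2 and 3. In SUGP1 G603N lines 1, 2 and 3 the level was 11.9, 9.23 and 7.88 CPM with PB against 35.8, 28 and 22.6 CPM with DMSO. Control cells had 9.27, 7.96 and 7.8 CPM with PB against 28.3, 30.5 and 25.6 CPM with DMSO in replicates 1, 2 and 3. The lines began at different DMSO levels and fell in proportion, so that 33.7, 33.3 and 33.4% remained in SUGP1 E554K lines and 33.3, 32.9 and 34.9% in SUGP1 G603N lines, against 32.8, 26 and 30.4% in control replicates. PHF5A 2xTL lines held 27.3, 24 and 21.2 CPM with PB against 29.1, 30.3 and 23.7 CPM with DMSO, with overlap. In SF3B1 T1080I lines it had 21.6, 22.1 and 19.8 CPM with PB against 22.8, 22.2 and 27.1 CPM with DMSO, where the groups did not overlap but the highest PB and lowest DMSO values came from the same line, 2. The log2 fold change was -0.20 ± 0.17 (SE, unadjusted p = 0.259) in PHF5A 2xTL and -0.18 ± 0.17 (SE, unadjusted p = 0.293) in SF3B1 T1080I (adjusted p = 1, edgeR). KAT14 shares 16.7% of its exonic bases with PET117 on the same strand, a gene for a mitochondrial assembly factor that stood at 0.954 ± 0.183 CPM with PB against 0.672 ± 0.217 CPM with DMSO in control (adjusted p = 0.786).

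KLF15 (ENSG00000163884, chromosome 3, 126342635 to 126357442, minus strand) encodes a Krüppel-like zinc finger transcription factor known for control of glucose and amino acid metabolism. It had 5.2, 6.76 and 4.19 CPM with PB against 12, 18.1 and 15.4 CPM with DMSO in SUGP1 E554K lines 1, 2 and 3. Lines 1, 2 and 3 of SUGP1 G603N had 4.13, 5.43 and 7.48 CPM with PB against 12.6, 17.7 and 14.4 CPM with DMSO. In control cells it had 3.27, 4.69 and 5.33 CPM with PB against 13.8, 14.9 and 19 CPM with DMSO in replicates 1, 2 and 3. Of the DMSO level, 43.4, 37.3 and 27.1% remained in SUGP1 E554K lines and 32.8, 30.6 and 51.8% in SUGP1 G603N lines, against 23.7, 31.5 and 28% in control replicates. The PHF5A 2xTL lines had 10.3, 13.5 and 14.4 CPM with PB against 16, 13.3 and 13.8 CPM with DMSO, where line 1 was lower and lines 2 and 3 were level. SF3B1 T1080I lines held 10.2, 10.3 and 11.4 CPM with PB against 9.84, 13.1 and 13.2 CPM with DMSO, which overlapped. In these genotypes the log2 fold change was -0.17 ± 0.227 (SE, unadjusted p = 0.452) for PHF5A 2xTL and -0.18 ± 0.227 (SE, unadjusted p = 0.435) for SF3B1 T1080I (adjusted p = 1, edgeR). Under DMSO all 3 PHF5A 2xTL libraries lay above all 3 SF3B1 T1080I libraries, as for 7.07% of all genes, a log2 difference of 0.25 ± 0.227 (SE, unadjusted p = 0.278) with an adjusted p of 1 (edgeR).

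Of the genes for kinases, channels and enzymes, RSKR (ENSG00000167524, chromosome 17, 28607964 to 28614200, minus strand) encodes a protein related to the ribosomal S6 kinases. It had 4.49, 3.17 and 3.57 CPM with PB against 26.2, 18.4 and 16.9 CPM with DMSO in SUGP1 E554K lines 1, 2 and 3. SUGP1 G603N lines 1, 2 and 3 had 5.83, 4.24 and 4.83 CPM with PB against 29.2, 20.4 and 15.6 CPM with DMSO. Control cells had 3.78, 3.77 and 3.04 CPM with PB against 14.7, 19 and 16.6 CPM with DMSO in replicates 1, 2 and 3. It was the gene with the least RNA left in SUGP1 E554K lines 1 and 2, at 17.1 and 17.3% of the DMSO level, and the control replicates kept 25.7, 19.8 and 18.3%. In PHF5A 2xTL lines it had 11.9, 19.3 and 20.5 CPM with PB against 14.8, 21.7 and 26.1 CPM with DMSO, with line 1 low in both treatments. The SF3B1 T1080I lines had 14.8, 15.6 and 16.3 CPM with PB against 18, 20.4 and 17.3 CPM with DMSO, with no overlap. PB was below DMSO in 6 of 6 lines, and the log2 fold change was -0.27 ± 0.232 (SE, unadjusted p = 0.246) in PHF5A 2xTL and -0.26 ± 0.232 (SE, unadjusted p = 0.279) in SF3B1 T1080I (adjusted p = 1, edgeR). Of its 4792 distinct 50-base words, 38.2% also occur in transcripts of other genes, as do 28.2% of its 150-base words, so the split of its reads is uncertain. The share of 50-base words was 31.7% for YJEFN3 and 15.2% for KAT14. The deposited RSKR values were not whole in 30 of 30 libraries. This alone does not mark shared reads, since MAN2B2 was not whole in 28 libraries with 0.705% of its 50-base words shared. RSKR shares 23.2% of its exonic bases with the antisense gene ENSG00000265287 and 13.5% with ENSG00000258472 on the same strand, neither of which passed the filter on low counts. It shares 7.03% with the antisense gene SPAG5-AS1, which was tested. SPAG5-AS1 had 1.65 ± 0.317 CPM with PB against 3.51 ± 0.185 CPM with DMSO in control, which did not pass (log2 fold change -1.09 ± 0.335, adjusted p = 0.0643, edgeR). It passed with replicate number as a block, with DESeq2 and on control libraries alone, where the adjusted p was lowest at 0.0125. No source used here states whether strand was used in counting.

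KCNAB3 (ENSG00000170049, chromosome 17, 7921859 to 7929803, minus strand) encodes a beta subunit of voltage-gated potassium channels. It had 7.12, 5.34 and 3.83 CPM with PB against 24.4, 17.6 and 16.6 CPM with DMSO in SUGP1 E554K lines 1, 2 and 3. In SUGP1 G603N lines 1, 2 and 3 the level was 4.97, 5.2 and 2.86 CPM with PB against 20.6, 18.1 and 14.4 CPM with DMSO. In control cells it had 4.26, 4.18 and 4.06 CPM with PB against 14.3, 17.7 and 22.6 CPM with DMSO in replicates 1, 2 and 3. The PB levels of the 3 control replicates lay within 4.06 to 4.26 CPM although their DMSO levels ran from 14.3 to 22.6 CPM. KCNAB3 was lower with PB in all 3 PHF5A 2xTL lines, at 11.9, 13.1 and 12.9 CPM against 18.3, 16.9 and 15.6 CPM with DMSO. In SF3B1 T1080I lines it had 12, 10.3 and 13.5 CPM with PB against 16.8, 15.1 and 16 CPM with DMSO. It was the only gene of the 10 whose PB and DMSO libraries did not overlap in either of these genotypes, and 64.9, 77.5 and 82.4% of the DMSO level remained in PHF5A 2xTL lines and 71.9, 67.9 and 84.4% in SF3B1 T1080I lines. The log2 fold change was -0.43 ± 0.219 (SE, unadjusted p = 0.0622) in PHF5A 2xTL and -0.42 ± 0.219 (SE, unadjusted p = 0.0655) in SF3B1 T1080I (adjusted p = 1 for both, edgeR).

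YJEFN3 (ENSG00000250067, chromosome 19, 19528861 to 19537581, plus strand) encodes a protein with the YjeF N-terminal domain, which it shares with the NAD(P)HX epimerase NAXE. It had 8.65, 8 and 6.43 CPM with PB against 29.1, 23.2 and 25.4 CPM with DMSO in SUGP1 E554K lines 1, 2 and 3. Lines 1, 2 and 3 of SUGP1 G603N had 11.3, 7.25 and 7.36 CPM with PB against 27.7, 25.9 and 24.9 CPM with DMSO. Control cells had 4.66, 6.79 and 7.51 CPM with PB against 14.7, 24.3 and 32.7 CPM with DMSO in replicates 1, 2 and 3. Its DMSO level had an SD of 2.96 CPM in SUGP1 E554K and 1.43 CPM in SUGP1 G603N, against 9.01 CPM in control, and 29.8, 34.5 and 25.4% of it remained in SUGP1 E554K lines and 41, 28 and 29.6% in SUGP1 G603N lines, against 31.7, 28 and 22.9% in control replicates. PHF5A 2xTL lines held 11.8, 21.3 and 22.6 CPM with PB against 19.7, 25.9 and 27.9 CPM with DMSO, with line 1 low in both. SF3B1 T1080I lines held 16.7, 14.3 and 15.7 CPM with PB against 17.5, 24.7 and 25.6 CPM with DMSO, with no overlap, and lines 2 and 3 were at 58.0 and 61.2% of their DMSO level against 95.4% in line 1. Its log2 fold change was -0.40 ± 0.249 (SE, unadjusted p = 0.12) in PHF5A 2xTL and -0.54 ± 0.249 (SE, unadjusted p = 0.0394) in SF3B1 T1080I (adjusted p = 1, edgeR). YJEFN3 shares 34.1% of its exonic bases with ENSG00000258674, a gene on the same strand that also fell in control, at 0.189 ± 0.135 CPM with PB against 1.26 ± 0.962 CPM with DMSO (log2 fold change -2.71 ± 0.587, adjusted p = 0.00529, edgeR), a call lost without DMSO library 3 (-1.88, adjusted p = 0.0818) or PB library 3, while the estimate was -3.47 without PB library 2. NDUFA13, a respiratory complex I subunit gene that shares 4.43% of these bases, had 6.97 ± 1.81 CPM against 5.01 ± 1.16 CPM (adjusted p = 0.678).

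MAN2B2 (ENSG00000013288, chromosome 4, 6575175 to 6623362, plus strand) encodes a lysosomal alpha-mannosidase that trims mannose from glycans. It had 2.04, 2.11 and 2.89 CPM with PB against 10.9, 9.64 and 8.85 CPM with DMSO in SUGP1 E554K lines 1, 2 and 3. SUGP1 G603N lines 1, 2 and 3 had 3.13, 5.72 and 4.13 CPM with PB against 8.45, 20.2 and 10.1 CPM with DMSO. In control cells it had 5.33, 3.73 and 4.81 CPM with PB against 10.1, 12.3 and 12.7 CPM with DMSO in replicates 1, 2 and 3. Of the DMSO level, 18.7, 21.9 and 32.7% remained in SUGP1 E554K lines against 52.7, 30.2 and 37.7% in control replicates. Line 2 of SUGP1 G603N was the highest of the 15 DMSO libraries, and 37.1, 28.3 and 41.1% remained in lines 1 to 3. The PHF5A 2xTL lines had 7.02, 6.93 and 8.87 CPM with PB against 8.78, 9.14 and 10.0 CPM with DMSO, which overlapped narrowly. The SF3B1 T1080I lines had 6.57, 8.6 and 8.63 CPM with PB against 10.4, 9.07 and 10.3 CPM with DMSO, with no overlap. PB was below DMSO in 6 of 6 of these lines, and the log2 fold change was -0.29 ± 0.253 (SE, unadjusted p = 0.256) in PHF5A 2xTL and -0.32 ± 0.252 (SE, unadjusted p = 0.21) in SF3B1 T1080I (adjusted p = 1, edgeR).

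Set against each other line by line, the 10 genes kept a median of 26.2 to 33.9% of their DMSO level in the 6 SUGP1 lines, against 21.5 to 27.7% in the 3 control replicates. The median was 80.3 to 81.7% in the PHF5A 2xTL lines and 85.2 to 94.9% in the SF3B1 T1080I lines. Which gene was lowest changed from line to line: RSKR in 3 lines, LINC01355 in 2 and KRCC1 in 1 of the 6 SUGP1 lines, and GOLGA2P5, KLRA1P and KRCC1 in control replicates 1, 2 and 3.

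**Figure D2:**
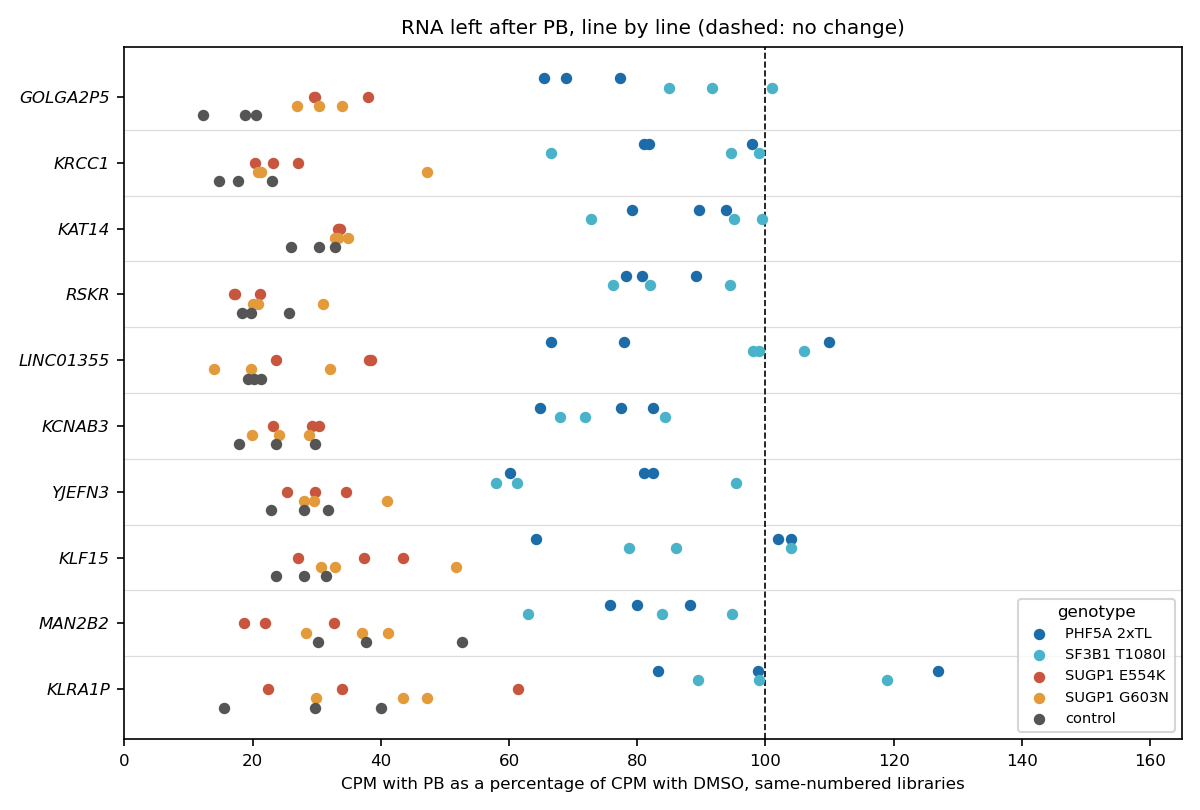
CPM with PB as a percentage of CPM with DMSO in the same-numbered library (x axis), for each gene (y axis) and line, coloured by genotype with 3 lines or replicates each. The SUGP1 and control points lie at 61.4% or below, the PHF5A 2xTL and SF3B1 T1080I points between 58.0 and 127%, and the dashed line marks no change.

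The tests on the 10 genes compared libraries that did not enter the choice, with the spread taken from the fit to all 30 libraries. None of the 10 genes was called in PHF5A 2xTL or SF3B1 T1080I lines or in the mean of both (edgeR, adjusted p = 1 for all 10 in each, with 0.00318% of all genes called lower in each). DESeq2 also called 0 of the 10. At an unadjusted p under 0.05, 1 gene was lower in PHF5A 2xTL (GOLGA2P5; 0.495% of all genes) and 1 in SF3B1 T1080I (YJEFN3; 0.533%). These counts were 0 without PHF5A 2xTL DMSO library 1 or 3 or PB library 2, and 0 without SF3B1 T1080I DMSO library 2 or 3 or PB library 2, and with replicate number as a block they were 3 and 2. Fitted on each genotype's libraries alone they were 2 and 2, against 1.02 and 1.22% of the genes tested there. In the mean of both genotypes 3 genes were lower, against 0.686% of all genes and 1.06% of the 3412 genes of like abundance: KCNAB3 with a log2 fold change of -0.42 ± 0.155 (SE, unadjusted p = 0.0109), YJEFN3 with -0.47 ± 0.176 (SE, unadjusted p = 0.0128) and GOLGA2P5 with -0.31 ± 0.152 (SE, unadjusted p = 0.0478). With replicate number as a block this count was 6 of 10, against 1.57% of all genes, and the lowest adjusted p was 0.264, for YJEFN3. The count was 4 of 10 where only the libraries of both genotypes were fitted, against 1.75% of the genes tested there, and 1 of 10 without PHF5A 2xTL PB library 1.

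The estimate was below 0 for 9 of 10 genes in PHF5A 2xTL (49.0% of all genes), for 8 in SF3B1 T1080I (51.2%) and for 9 in their mean (48.8%). The median log2 fold change was -0.26 in PHF5A 2xTL, with a range of -0.51 to 0.04, and -0.19 in SF3B1 T1080I, with a range of -0.54 to 0.01, while the medians over all genes were 0.00471 and -0.00654. The PB library lay below its DMSO partner in all 6 lines for KRCC1, KAT14, RSKR, KCNAB3, YJEFN3 and MAN2B2, a pattern held by 2.69% of all genes and by 5.04% of genes of like abundance (6.06 to 20.9 CPM). In PHF5A 2xTL, GOLGA2P5 and KCNAB3 had all 3 PB libraries below all 3 DMSO libraries (3.81% of all genes), and in SF3B1 T1080I KAT14, RSKR, KCNAB3, YJEFN3 and MAN2B2 did (4.49%). KLRA1P was the gene with an estimate above 0 in both genotypes.

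**Figure D3:**
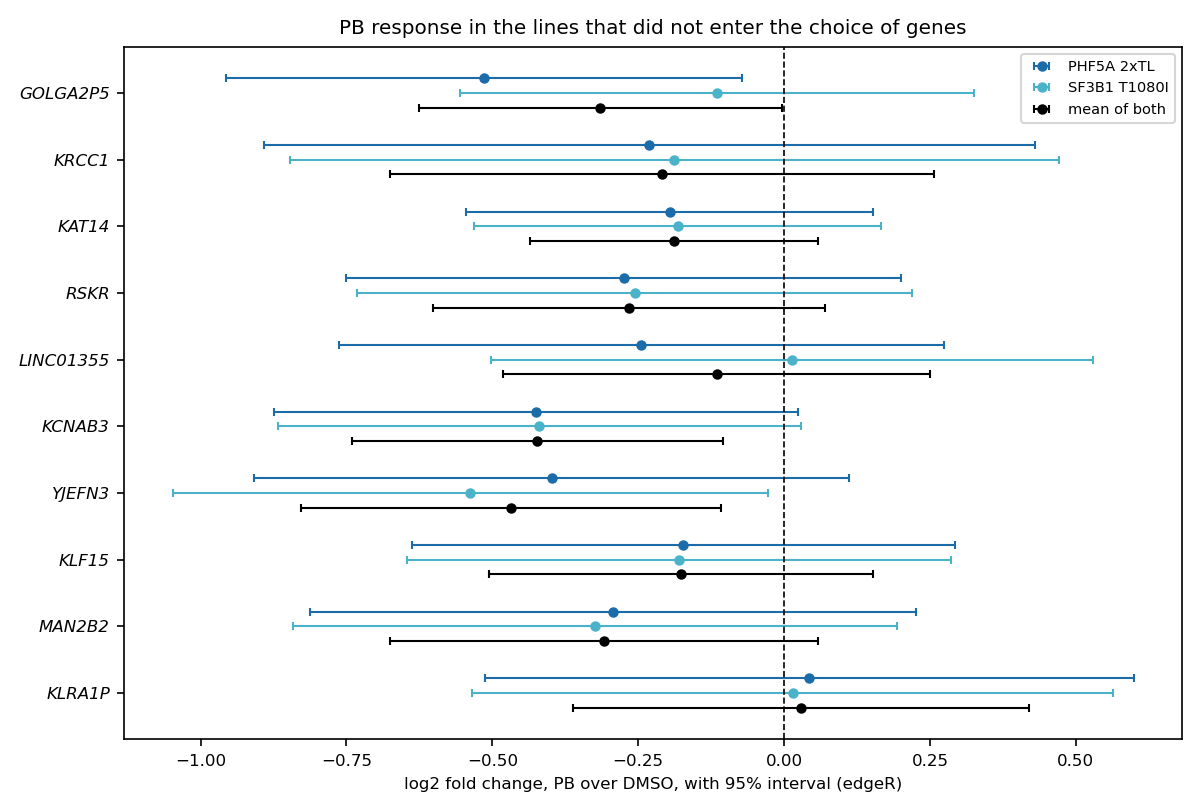
log2 fold change of PB over DMSO with its 95% interval (x axis) for each of the 10 genes (y axis) in PHF5A 2xTL lines, SF3B1 T1080I lines and the mean of both, from the edgeR model of all 30 libraries. Most points lie left of the dashed line at 0, and the interval of the mean leaves out 0 for KCNAB3, YJEFN3 and GOLGA2P5, none of which passed the adjustment over all genes.

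PHF5A 2xTL and SF3B1 T1080I were compared with each other for the same genes. The PB response differed between them by -0.40 to 0.14 on the log2 scale, and 0 of 10 genes were called, as was 0% of all genes (edgeR, and 0 of 10 with DESeq2). At an unadjusted p under 0.05 the count was also 0. The widest gap was that of GOLGA2P5, -0.40 ± 0.304 (95% interval -1.02 to 0.22, unadjusted p = 0.2), so the sign of the difference is not settled. For KAT14 the interval of the difference was -0.51 to 0.48 and for RSKR -0.69 to 0.65. Under DMSO 0 of 10 genes were called between these genotypes (0% of all genes, edgeR), 1 was lower at an unadjusted p under 0.05 (KLRA1P; 2.70% of all genes) and DESeq2 called 0 of the 10.

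Levels per kilobase were taken with the gene length deposited beside the counts, whose source is not stated. For LINC01355 and RSKR this length is 6182 and 6978 bases, above their GENCODE gene spans of 5445 and 6237 bases. It is therefore not the GENCODE exon length for these genes, and the order under exon lengths was not tested. Over the 15 DMSO libraries the levels ran from 8.32 ± 1.52 CPM per kilobase for YJEFN3 to 1.21 ± 0.326 for MAN2B2 (SD). KRCC1 followed at 6.40 ± 1.35, KAT14 at 5.42 ± 0.764, KLF15 at 5.15 ± 0.877, KCNAB3 at 3.81 ± 0.625, KLRA1P at 3.06 ± 0.816, RSKR at 2.82 ± 0.634, GOLGA2P5 at 1.53 ± 0.254 and LINC01355 at 1.35 ± 0.148 CPM per kilobase. The ranges of neighbours in this order overlapped, except that all 15 RSKR values lay above all 15 GOLGA2P5 values. In CPM, the 10 genes lay at percentiles 65.0 to 75.8 of all tested genes by mean CPM.

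Genes known to work with the 10, or related to them, were set beside them in 8 lists of 98 tested genes. PB changed 10 of these in SUGP1 E554K, all lower (10.2%, against 4.32% of all genes), 7 in SUGP1 G603N, 6 of them lower (7.14%, against 4.08%), and 13 in control, 10 of them lower (13.3%, against 4.30%). The shares of all genes include many rare RNAs, and no share was taken over genes as abundant as those of the lists. Whether the lists held more called genes than genes of like abundance was therefore not tested. With replicate number as a block the counts for the lists were 26, 21 and 24. Fitted on each genotype alone they were 0, 0 and 17. Single libraries moved them too: to 4 without SUGP1 E554K PB library 2 and 5 without any one of its DMSO libraries 1 and 2 and PB library 3, to 4 without any one of SUGP1 G603N DMSO libraries 1 and 2 and PB library 2 and 15 without its DMSO library 3, and to 7 without control DMSO library 2 and 8 without control PB library 1 or 3. None of the 98 was called in PHF5A 2xTL or SF3B1 T1080I (edgeR, and 0 with DESeq2).

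In the ATAC complex, to which KAT14 belongs, 3 of 12 other subunits fell in SUGP1 E554K, 2 in SUGP1 G603N and 3 in control, and none rose. The list's median log2 fold change lay between -0.07 and -0.03 in these genotypes. TADA2A, an adaptor of the acetyltransferase, had 21.4 ± 4.45 CPM with PB against 31.8 ± 4.87 CPM with DMSO in SUGP1 E554K (-0.57 ± 0.138, adjusted p = 0.0139), 19.4 ± 2.53 against 34 ± 3.46 CPM in SUGP1 G603N (-0.81 ± 0.139, adjusted p = 0.000671) and 19.6 ± 0.171 against 33.2 ± 3.10 CPM in control (-0.76 ± 0.139, adjusted p = 0.00107, edgeR). YEATS2, the histone-reading subunit, fell in all 3 genotypes, with 61.7 ± 3.60 against 94.6 ± 7.81 CPM in control (-0.62 ± 0.132, adjusted p = 0.00478). KAT2B, an acetyltransferase subunit, fell in SUGP1 E554K (-0.48 ± 0.14, adjusted p = 0.0467) and in control (-0.64 ± 0.14, adjusted p = 0.00615). The control calls of these 3 genes held in 11 of 11 alternatives, while in SUGP1 E554K that of KAT2B held in 4 and was lost when any of DMSO libraries 1 and 2 and PB libraries 2 and 3 was left out, and that of TADA2A held in 7 and was lost without any one of DMSO library 2 and PB libraries 1 and 2.

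Among 17 golgins and Golgi matrix genes, the family of GOLGA2, 4 fell in SUGP1 E554K, 3 in SUGP1 G603N and 4 in control, where 1 rose. That gene, GCC1, named after its values were seen, had 36.4 ± 1.21 CPM with PB against 25.5 ± 1.96 CPM with DMSO (log2 fold change 0.51 ± 0.125, adjusted p = 0.0133, edgeR), a call lost without the filter on low counts and without DMSO library 1 or 2. TRIP11, a golgin of the cis-Golgi, had 32 ± 5.93 CPM with PB against 70.8 ± 16.9 CPM with DMSO in SUGP1 E554K (-1.14 ± 0.159, adjusted p = 4.84e-05), 35.3 ± 2.14 against 77.8 ± 11.6 CPM in SUGP1 G603N (-1.14 ± 0.159, adjusted p = 6.65e-05) and 35.0 ± 4.19 against 89.6 ± 12.3 CPM in control (-1.36 ± 0.159, adjusted p = 4.69e-06, edgeR). GOLGA5, a golgin that tethers vesicles, fell by 0.94 in SUGP1 E554K, by 0.98 in SUGP1 G603N and by 0.91 in control on the log2 scale (adjusted p = 0.000123, 9.09e-05 and 0.000158). In control the calls of TRIP11 and GOLGA5 held in 11 of 11 alternatives, and in each SUGP1 mutant in 10 of 11, lost where that genotype's libraries were fitted alone. The median of the list lay between -0.19 and -0.08 in these genotypes.

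Of 26 alpha-mannosidases and lysosomal glycosidases, the relatives of MAN2B2, NAGLU, which degrades heparan sulfate, fell in SUGP1 E554K (5.58 ± 1.06 against 10.8 ± 3.13 CPM, adjusted p = 0.0178) and in control (5.80 ± 1.45 against 10.9 ± 1.76 CPM, adjusted p = 0.0221), and MAN1A2, a Golgi mannosidase, in SUGP1 E554K (32.6 ± 2.08 against 46.9 ± 11.5 CPM, adjusted p = 0.0298, edgeR). Of 13 S6 kinase relatives of RSKR, RPS6KC1 fell in SUGP1 E554K (24.3 ± 2.88 against 36.4 ± 4.41 CPM, adjusted p = 0.0137) and SUGP1 G603N (25.7 ± 2.27 against 38 ± 2.68 CPM, adjusted p = 0.0179), SGK3 fell in control (2.82 ± 1.07 against 5.50 ± 1.40 CPM, adjusted p = 0.0455), and RPS6KB2, a kinase of ribosomal protein S6, rose in SUGP1 G603N (48.5 ± 7.71 against 34.5 ± 0.597 CPM, adjusted p = 0.0383) and in control (41.7 ± 1.70 against 29 ± 5.56 CPM, adjusted p = 0.0236). Of 17 tested KLF and SP transcription factors, KLF6 rose (49.9 ± 6.15 against 34.5 ± 5.10 CPM, adjusted p = 0.0414) and SP2 fell (27.9 ± 0.915 against 38 ± 4.15 CPM, adjusted p = 0.0356) in control. These calls were fragile, holding in 4 to 7 of 11 alternatives. In control, leaving out DMSO library 2 ended those of NAGLU, KLF6, SP2, RPS6KB2 and SGK3, as did leaving out PB library 1 or PB library 3; DMSO library 1 ended those of RPS6KB2 and SGK3, DMSO library 3 those of NAGLU, KLF6 and SP2, and PB library 2 those of KLF6, SP2 and RPS6KB2. In SUGP1 E554K, MAN1A2 was lost without any of the libraries but DMSO library 3, NAGLU without any one of DMSO library 2 and PB libraries 2 and 3, and RPS6KC1 without any one of DMSO library 1 and PB libraries 2 and 3. In SUGP1 G603N, RPS6KC1 and RPS6KB2 were lost when any of DMSO libraries 1 and 2 and PB libraries 2 and 3 was left out. Of the 6 potassium channel subunits tested beside KCNAB3, the 2 NAD(P)HX repair enzymes beside YJEFN3 and the 5 killer cell lectin-like receptors beside KLRA1P, 0 were called in any genotype.

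**Figure D4:**
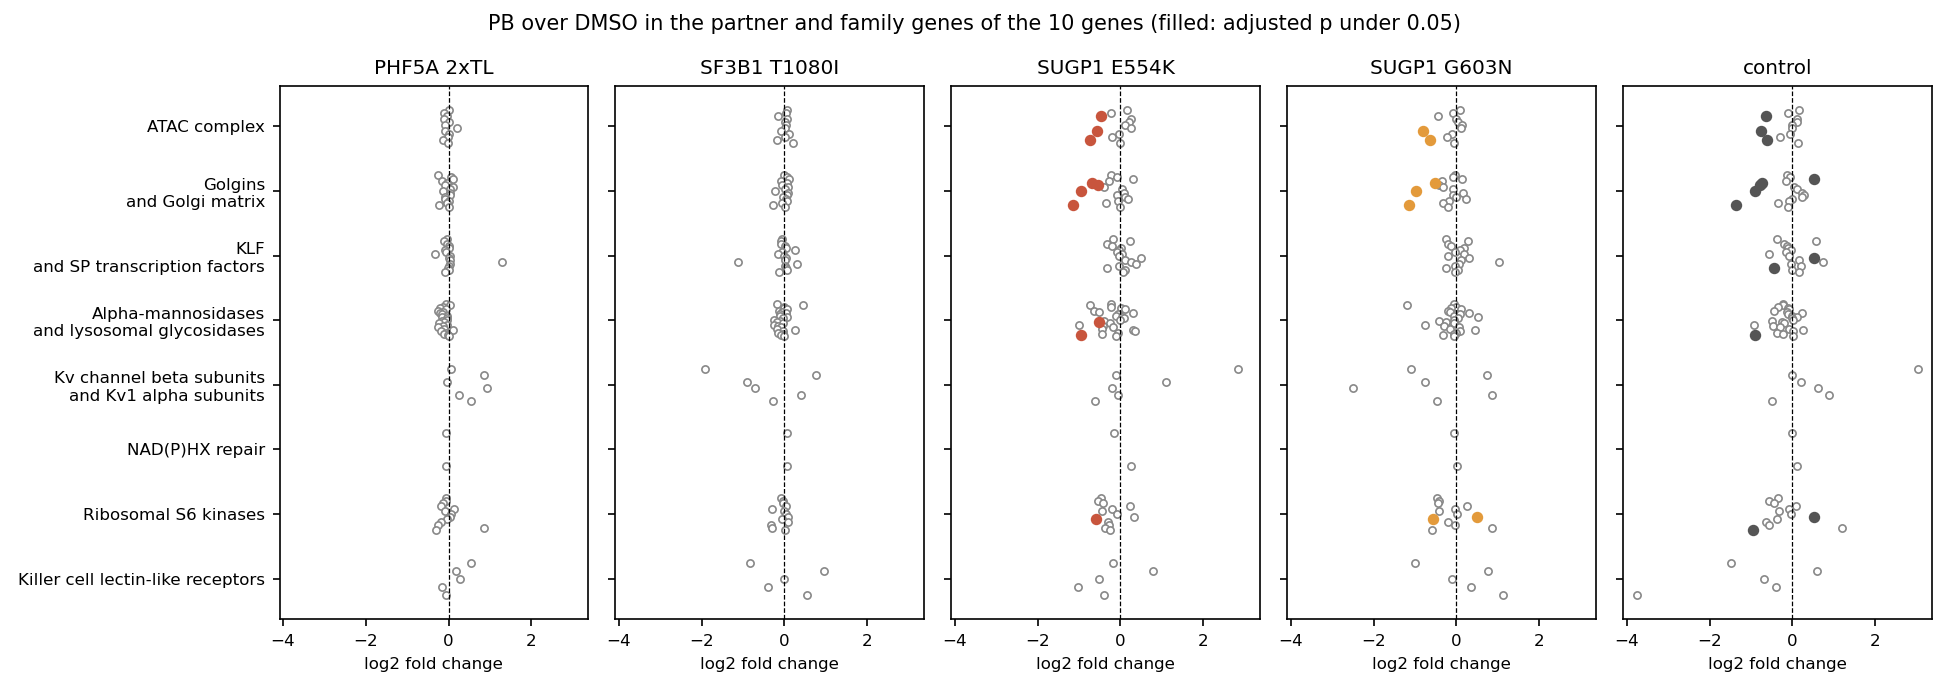
log2 fold change of PB over DMSO (x axis) for every tested gene of the 8 lists (y axis), 1 panel per genotype, with filled points for an adjusted p under 0.05. Filled points are present only in the SUGP1 and control panels, 10 in SUGP1 E554K, 7 in SUGP1 G603N and 13 in control, mostly left of 0.

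As a description, the log2 CPM of each gene was correlated over the 30 libraries with the mean standardised level of the other 9. Pearson's r ran from 0.841 for MAN2B2 and 0.864 for KLRA1P to 0.960 for KAT14 and KCNAB3 and 0.968 for RSKR. The PB libraries of the SUGP1 and control groups lie apart from all others for these genes, so r describes mainly that split. The genes were chosen for falls in those groups, so a high r followed from the choice and is no evidence that they are alike. The pattern to which other genes are compared next is largely the same split. Of 11989 other genes whose mean was 4 CPM or more, the pattern most like that of the 10 was that of BRD8, a bromodomain subunit of the TIP60 acetyltransferase complex (r = 0.982), which had 75.3, 79.6 and 68.5 CPM with PB in SUGP1 E554K, SUGP1 G603N and control cells against 167, 169 and 149 CPM with DMSO. ZNF653, a zinc finger protein gene, followed (r = 0.974), at 1.64, 1.96 and 1.29 CPM with PB against 6.40, 6.33 and 5.98 CPM with DMSO in the same order. RBBP6, NCOA5 and SSH1 came next, with r of 0.969, 0.968 and 0.965. In PHF5A 2xTL and SF3B1 T1080I, BRD8 had 140 and 131 CPM with PB against 157 and 149 CPM with DMSO, and ZNF653 had 5.42 and 4.66 against 6.18 and 6.11 CPM.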

How the data were processed

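Poly(A)-selected RNA of eHAP FNLS cells was sequenced with unique molecular identifiers and paired-end reads of 150 bases, per the labels' protocols. The authors used UMI-tools, STAR and SAMtools 1.10 with hg38, per the submitters' processing notes. The sources used here name no counting program or annotation and do not say whether strand was used. The deposited values are estimated counts per gene, of which 65.5% of those above 0 were not whole, and they were rounded to whole numbers. Library totals ran from 31590000 to 75040000. Group means rest on 3 libraries each, and the spread of each gene was estimated over all 30 libraries.

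All 30 libraries were fitted together with edgeR 4.0.16 in R 4.3.3 (quasi-likelihood test, TMM scaling, filterByExpr, 31495 genes tested, Benjamini-Hochberg adjustment over all of them, threshold 0.05, two-sided). The standard error was taken from the fold change and its F statistic and is approximate. The alternatives were other size factors, no filter on low counts, DESeq2 1.42.0, each genotype fitted alone, replicate number as a block, and leaving out each library. The scripts were tested on simulated counts. The same numbers pair PB with DMSO libraries of a monoclonal line: deviations from group means correlated at 0.424 to 0.837 in mutants and 0.212 to 0.436 in control over 11999 genes. The control replicates come from 1 line, so the spread among them is that between its samples, which may be technical. In the joint fit, p-values in control rest on a spread per gene estimated over all 30 libraries, which includes the spread between mutant clones. GENCODE release 29, which holds 58312 of the 61487 identifiers, gave gene structures, and BLAST+ 2.17.0 the alignment. The 10 genes, the lists of related genes and the tests were chosen with earlier results of these data known. The genes named beside the 10 are the tested genes that overlap them, GOLGA2, up to 3 called genes per list by lowest adjusted p, and the 5 genes of most similar pattern with a mean of at least 4 CPM.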

Additional observations from a re-analysis of the deposited data

How the results depend on the processing

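None of the 10 genes passed the threshold in PHF5A 2xTL, SF3B1 T1080I or their mean under any alternative. Estimates near 0 changed sign without single libraries. In PHF5A 2xTL, KLRA1P ran from -0.102 to 0.211 over these fits, with -0.0084 without DMSO library 1, -0.102 without PB library 2 and -0.0051 without PB library 3. In SF3B1 T1080I, KLRA1P ran from -0.086 (without DMSO library 1) to 0.1155, LINC01355 from -0.018 (without DMSO library 2) to 0.033, and KRCC1 from -0.32 to 0.025 (without PB library 3). In the mean of both, KLRA1P ran from -0.043 (without PHF5A 2xTL PB library 2) to 0.113, with -0.023 without SF3B1 T1080I DMSO library 1. The cause was not tested.

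The counts of related genes were checked under alternatives chosen after seeing the data. With replicate number as a block they were 26 in SUGP1 E554K, 21 in SUGP1 G603N and 24 in control. Fitted on each mutant's libraries alone they were 0 and 0, and without the filter 4 in SUGP1 G603N and 8 in control. Leaving out 1 library gave 4 to 15 in SUGP1 E554K, 4 to 15 in SUGP1 G603N and 7 to 10 in control. Over all genes, called counts were 1361 in SUGP1 E554K (3563 with the block, 2207 with DESeq2, 78 alone), 1284 in SUGP1 G603N (2913 with the block, 758 without the filter, 1 alone) and 1354 in control (2943 with the block, 2401 alone). Single libraries moved them by over 1.5 times: in SUGP1 E554K to 669 and 755 without DMSO library 1 and 2 and 749 and 868 without PB library 2 and 3; in SUGP1 G603N to 673, 701 and 2673 without DMSO library 1, 2 and 3 and 838 and 775 without PB library 2 and 3; and in control to 766 without DMSO library 2 and 810, 853 and 658 without PB library 1, 2 and 3. The 1 gene called in SF3B1 T1080I became 5 with the block, 3 with DESeq2 and 0 on its libraries alone, and it was 0 without any one of its DMSO libraries 2 and 3 and PB libraries 1 and 3. The 1 in PHF5A 2xTL became 0 without the filter, on its libraries alone and without any one library. The 1 in the mean of both became 7 with the block and 7 with DESeq2. Between PHF5A 2xTL and SF3B1 T1080I under DMSO the 0 calls became 74 with DESeq2, 11 without the filter and 46 without SF3B1 T1080I DMSO library 3. The block changed no call of the 10 genes in PHF5A 2xTL or SF3B1 T1080I. The lowest counts of a library were 53 for KLRA1P, 54.58 for LINC01355 and 57.39 for GOLGA2P5.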

Other observations

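Genes outside the 10 fell as steeply in control cells, named here after their values were seen. The unnamed gene ENSG00000264112 had a log2 fold change of -2.30 and rank 4 by size of fall, the divergent transcript TMCC1-DT -2.28 and rank 5, the zinc finger gene ZNF653 -2.21 and rank 7, and the antisense RNA RBM26-AS1 -2.05 and rank 9. The zinc finger gene ZNF862 had -1.80 and rank 13. These ranks are among genes called lower with no overlap of libraries and a mean of 4 CPM or more, so rarer RNAs are left out. Under the same limits RBM26-AS1 had the steepest fall in SUGP1 G603N lines, at -2.33. The 10 genes are therefore not a complete set of the steepest falls, and no numeric limit separates them from these genes.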
